A study of Bos taurus with 25 samples.

Results

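DLK1 and a set of other imprinted genes of growth control were followed in the liver and mammary gland of dairy cows given vitamins B9 and B12. The set was DLK1, IGF2, IGF2R, PEG3, MEST, PLAGL1 and GNAS, and it was assembled around DLK1 because DLK1 was lower in the liver of cows given B9 or B12 alone. Of these 7 genes, 6 had probes on the array, and none of the probe names was paired with PEG3. They carried 33 of the 43653 different probes, with 11 for IGF2, 6 for GNAS, 5 each for DLK1 and MEST, and 3 each for IGF2R and PLAGL1. Each probe was kept apart, and the level of a probe was never set against that of another probe.

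The cows were multiparous Holstein cows that received a 5 mL intramuscular injection every week around calving and in early lactation. Control cows (Ctl) received 0.9% NaCl, B9 cows 320 mg of folic acid, B12 cows 10 mg of vitamin B12 as cyanocobalamin, and B9_B12 cows both vitamins. Biopsies were taken 64 ± 3 days after calving, so each group is described at a single time point in lactating animals. In the liver there were 3 Ctl, 3 B9, 4 B12 and 2 B9_B12 arrays, and in the mammary gland 3, 3, 4 and 3. Each of the 25 arrays held the RNA of 1 cow on a 1-colour bovine Agilent array, and 12 of the 13 cows gave both tissues. The B9_B12 liver group was therefore the smallest, with cows 32 and 38 only.

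The tissue labels were checked against marker genes. All 10 hepatocyte markers found were more than 2-fold higher in the liver, and 9 of the 10 mammary epithelium markers found were more than 2-fold higher in the mammary gland. Between 71.2% and 84.2% of probes were well above background on the liver arrays, and between 64.5% and 76.5% on the mammary arrays. In the liver, the arrays of B9 cow 57 and B9_B12 cow 32 correlated less with the other liver arrays, with mean Pearson's r of 0.972 each, than did the rest. A slide scanned on the second of 2 days held 3 liver arrays, those of control cow 43, B12 cow 37 and B9_B12 cow 32.

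Imprinted genes are expressed mainly from the copy inherited from a given parent, and the marks that set this are DNA methylation at control regions. Folate and vitamin B12 both serve the methionine cycle, which supplies methyl groups. DLK1 is a paternally expressed transmembrane protein related to the Notch ligands, abundant in fetal tissues, preadipocytes and hepatic progenitor cells and low in most adult tissues. IGF2 is a growth factor of the liver and fetus, and IGF2R clears it from the cell surface. MEST is a hydrolase-like protein of the endoplasmic reticulum, PLAGL1 a zinc finger transcription factor of an imprinted gene network, and GNAS encodes the stimulatory G protein subunit that raises cyclic AMP.

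The study's own primer pair for DLK1 is given here because it marks the transcript for which the array probes were named, while the array files give no letters for the probes. The pair belonged to a quantitative PCR assay that was not analysed here. Both are written from 5′ to 3′.
DLK1 forward primer: agaacctgctgctgcactacaa
DLK1 reverse primer: gggcgctgctcagatctc

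In the liver, DLK1 was lower in cows given a single vitamin than in control cows at all 5 probes. Relative to the control mean, the difference with B9 ran from -2.54 to -0.79 on the log2 scale, with a median of -1.65, or 3.14-fold lower. With B12 it ran from -1.86 to -0.82, with a median of -1.38, or 2.61-fold lower. With both vitamins it ran from -0.55 to -0.02, with a median of -0.46. DLK1 was chosen on the B9 and B12 contrasts, so those values are a description and were not tested. In biopsies of whole tissue, fewer cells that express a gene and less RNA per cell cannot be told apart.

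The array values show the same separation cow by cow. For probe A_73_P069591, the control cows 42, 43 and 51 had log2 intensities of 10.81, 12.09 and 10.73. B9 cows 39, 41 and 57 had 8.47, 8.78 and 8.74, and B12 cows 36, 37, 40 and 52 had 9.84, 9.09, 8.56 and 9.88. All 7 arrays of the single vitamins lay below all 3 controls. B9_B12 cow 32 had 11.52, within the control range, and cow 38 had 9.79, below it.

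Probe A_73_P399776 gave 8.20, 9.43 and 8.38 in control cows, 6.41, 6.69 and 6.49 with B9, and 7.45, 6.88, 6.65 and 7.39 with B12. Probe A_73_P102621 gave 8.45, 9.45 and 8.49 in control cows, 6.59, 7.08 and 7.77 with B9, and 7.63, 7.16, 7.18 and 7.69 with B12. In both, the single-vitamin groups were separate from the controls, whereas the B9_B12 values straddled the lower controls, at 9.16 and 7.19 for A_73_P399776 and at 9.13 and 7.55 for A_73_P102621. Probe A_73_110424 gave 12.42, 12.82 and 12.14 in control cows, 11.49, 11.31 and 12.22 with B9, 11.63, 11.53, 11.28 and 12.15 with B12, and 12.80 and 12.08 with both. Probe A_73_P360536 gave 8.57, 9.08 and 8.41 in control cows, 7.44, 7.72 and 8.53 with B9, 7.84, 7.53, 7.31 and 7.99 with B12, and 9.07 and 8.0 with both. At these last probes B9 cow 57 reached the control range, and at A_73_110424 B12 cow 52 did so, with 12.15 against the lowest control at 12.14.

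**Figure D1:**
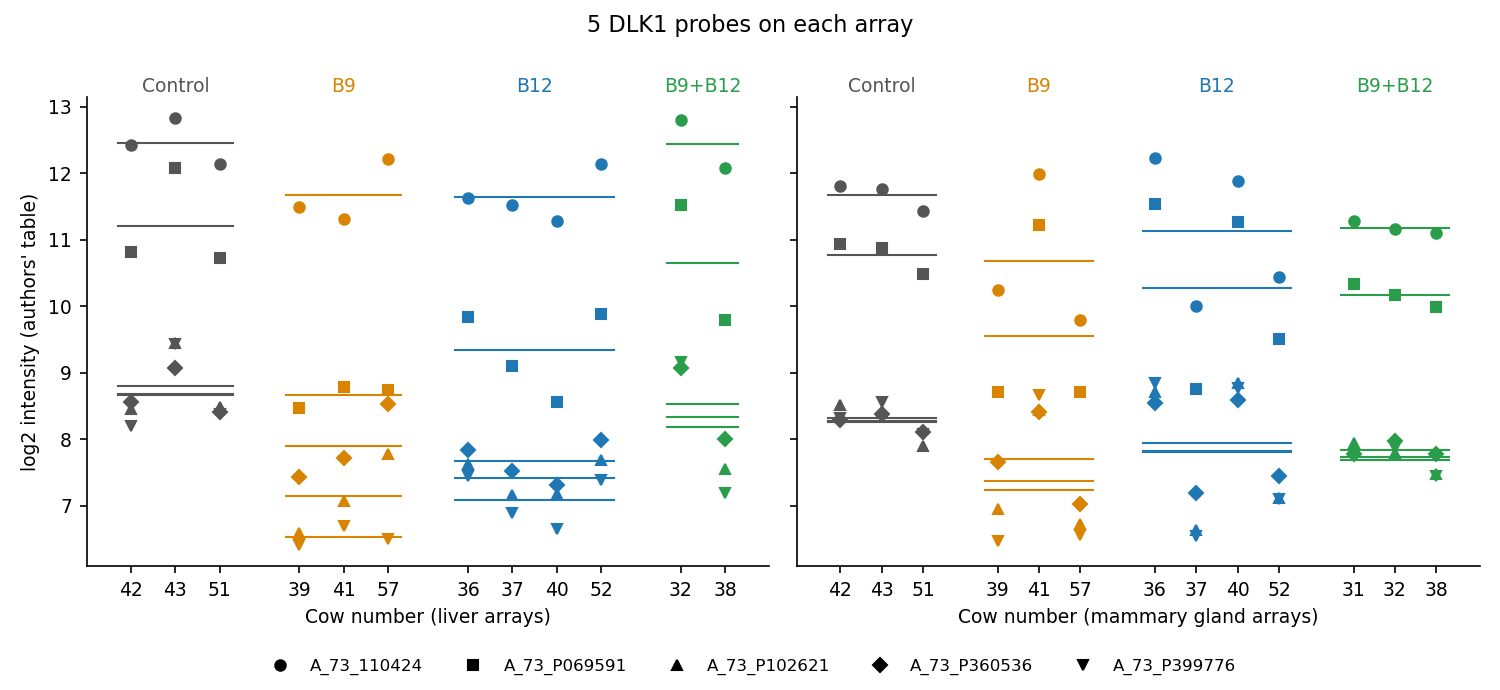
Log2 intensity of the DLK1 probes on each array, plotted by cow number for liver and mammary arrays, with colours for the 4 treatments, a symbol for each probe and a horizontal line at each group's mean. In the liver, control cow 43 is the highest array at all 5 probes and the B9 and B12 arrays lie mostly below the controls, while in the mammary gland the B9 and B12 arrays divide into high and low cows.

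Without overlap between groups, 3 of the 5 DLK1 probes were lower with B9, against 4.16% of all probes, and 4 of 5 were lower with B12, against 2.51%. Nothing is read from these shares, since the gene was picked on them. By group mean, A_73_P069591 was ordered as Ctl (11.21 ± 0.76, SD, n = 3), B9_B12 (mean 10.65, n = 2), B12 (9.34 ± 0.63, n = 4) and B9 (8.67 ± 0.17, n = 3). Neighbouring groups in that order overlapped at each step. When each array was summarised as the median of its 5 probes from the control mean, the controls lay between -0.35 and 0.66, the B9 cows between -2.20 and -1.03, and the B12 cows between -1.64 and -1.11. B9_B12 cows 32 and 38 lay at 0.34 and -1.25, so the mean of that group is the mean of a cow at control level and a cow at the level of the single vitamins.

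The 5 probes moved together from array to array, with Pearson's r between 0.83 and 0.99 (median 0.93) over the 12 liver arrays. The SD of DLK1 over those arrays was 1.21 at A_73_P069591 and 0.54 at A_73_110424, where the median SD over 34482 detected probes was 0.28 and the 99th percentile 1.02. Control cow 43 was the highest array at all 5 probes and decided part of the size of the differences. Without it the median difference was -1.32 with B9 and -1.06 with B12.

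Livers were also compared within a slide. On slides that held a control and a treated liver, the treated cow was lower at all 5 probes in each of the 5 pairs. The pairs reuse control cows 42 and 43, and those with a single vitamin hold arrays on which DLK1 was chosen. Their sign is therefore a description and no support. The median over the probes was -1.31 for B12 cow 40 against control cow 51, -2.29 for B12 cow 37 against control cow 43, and -0.68 for B9 cow 57 against control cow 42. For B9_B12 it was -0.90 for cow 38 against cow 42 and -0.26 for cow 32 against cow 43. Cow 43 was the highest control, and against the mean of all controls cow 32 was higher, at 0.34. The other B9 livers shared no slide with a control liver, and with slide as a fixed block the B9 value was -0.46, with cow 57 as the only B9 liver on a slide with a control.

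Markers of other liver cell types were set beside DLK1, because DLK1 is known from biliary and progenitor-like cells. The summed intensity of 7 cholangiocyte and progenitor markers was 45530 to 72920 in control livers, 35460 to 63220 with B9, 23150 to 56700 with B12 and 47200 to 51950 with both. That of 6 endothelial markers was 8670 to 10500 in controls and 6954 to 8623 with B12, without overlap, against 7428 to 10150 with B9 and 9365 to 9499 with both. Each of these markers was well above background on at least 1 liver array. Over the 12 liver arrays, r with DLK1 was 0.54 for the cholangiocyte and progenitor list and 0.49 for the endothelial list, and between -0.32 and 0.36 for the other 9 lists. The summed hepatocyte markers were 2582000 to 2653000 in controls and 2383000 to 2553000 with B9, also without overlap. The summed mammary epithelium markers were 91750 to 96150 in control livers and 69980 to 88910 with B9. Gene by gene, however, 5 of these 10 mammary epithelium markers lay above all control livers with B9 and 1 below. Against this, 4.01% and 3.76% of all genes did. Their median difference was 0.83, opposite in sign to the change of the sum. The arrays share their normalization and the part of these cells in the DLK1 values was not tested.

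The combined treatment was the only liver contrast open to a test for DLK1, and it shares its control arrays with the others. None of the 5 probes was called by limma, with Benjamini-Hochberg adjusted p between 0.73 and 0.98. The exact permutation test, two-sided, gave p between 0.6 and 0.9, and the smallest p that 2 against 3 arrays allow is 0.1. At A_73_P069591 the difference was -0.55 with a 95% interval of -1.78 to 0.67, and the differences of this probe were -2.54 with B9 and -1.86 with B12. Without cow 38 all 5 differences turned positive, between 0.31 and 0.49.

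DLK1 was also detected on all 13 mammary arrays, where the cows of the single vitamins split into high and low animals. For A_73_P069591, the control cows 42, 43 and 51 had 10.93, 10.87 and 10.49, and B9_B12 cows 31, 32 and 38 had 10.34, 10.17 and 10.00. B9 cows 39, 41 and 57 had 8.72, 11.22 and 8.71. B12 cows 36, 37, 40 and 52 had 11.54, 8.75, 11.26 and 9.51. Thus B9 cow 41 and B12 cows 36 and 40 lay above every control, and B9 cows 39 and 57 and B12 cows 37 and 52 lay below every control. High cows 41 and 36 shared a slide, and so did low cows 57 and 37, each without a mammary control. High cow 40 and low cow 39 shared a slide with control cow 51. The part of the slide in the split was not tested.

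The SD of A_73_P069591 was 0.24 in control and 0.17 in B9_B12 mammary glands, and 1.45 with B9 and 1.35 with B12. The 5 probes moved together, with r between 0.94 and 0.99 (median 0.98) over the 13 arrays. The median over the 5 probes was -1.43, 0.32 and -1.76 from the control mean in B9 cows 39, 41 and 57, and 0.53, -1.66, 0.45 and -1.22 in B12 cows 36, 37, 40 and 52. The difference in spread was not tested.

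None of the 3 mammary contrasts was called for DLK1. The differences ran from -1.22 to -0.56 with B9 (median -0.99), from -0.53 to -0.31 with B12 (median -0.50) and from -0.63 to -0.41 with both (median -0.53). With limma the adjusted p was 1 for every DLK1 probe with B9 and with both, and at least 0.9999 with B12. For A_73_P069591 the 95% intervals were -2.83 to 0.40 with B9, -2.0 to 1.01 with B12 and -2.21 to 1.01 with both.

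With both vitamins, 4 of the 5 mammary DLK1 probes lay below all control arrays, against 3.44% of all probes lower and 3.44% higher. The exact two-sided permutation p was 0.1 for each of the 4, which is the smallest that 3 against 3 arrays can give. Over all 33 probes and the 4 contrasts tested this way, 132 exact permutation tests gave no p below 0.05. Only the 33 tests of the mammary B12 contrast could have done so, with a least possible p of 0.0286. In the other contrasts it was 0.1, so their result was fixed in advance. Within slides, B9_B12 cows were lower than the control cow at all 5 probes in each of 3 pairs, by medians of -0.62, -0.41 and -0.55. B12 cow 52 was lower than control cow 43 by a median of -1.33, B9 cow 39 lower than cow 51 by -1.20, and B12 cow 40 higher than cow 51 by 0.69.

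Of the 11 marker lists, the sum of the 6 adipocyte markers found was separate from the controls in the mammary glands of cows given both vitamins. It was 58330 to 61450 against 49270 to 56380. Gene by gene, 2 of these 6 lay below all controls and 1 above, with a median difference of -0.08. The mammary epithelium sum was 2432000 to 2505000 with B12 against 2519000 to 2538000 in controls, also without overlap. Over the 13 mammary arrays, r with DLK1 was 0.57 for erythroid, 0.56 for mesothelial, 0.54 for lymphocyte and plasma cell, 0.50 for skeletal muscle, 0.39 for endothelial and 0.37 for adipocyte markers, -0.42 for hepatocyte and -0.32 for mammary epithelium markers, and -0.05 to 0.14 for the other lists. Markers well above background on all 13 arrays were 2 of 6 erythroid, 1 of 3 mesothelial, 5 of 7 lymphocyte and plasma cell, and 9 of 17 skeletal muscle markers. The part of these cells in the mammary DLK1 values was not tested.

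Both tissues of a cow did not give the same rank of DLK1. B9 cow 41 and B12 cows 36 and 40 were at -1.72, -1.17 and -1.62 in the liver but at 0.32, 0.53 and 0.45 in the mammary gland. B9 cows 39 and 57 and B12 cows 37 and 52 were below the control mean in both tissues, by more than 1 log2 unit. B9_B12 cow 32 was at 0.34 in liver and -0.48 in mammary tissue, and cow 38 at -1.25 and -0.77.

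**Figure D2:**
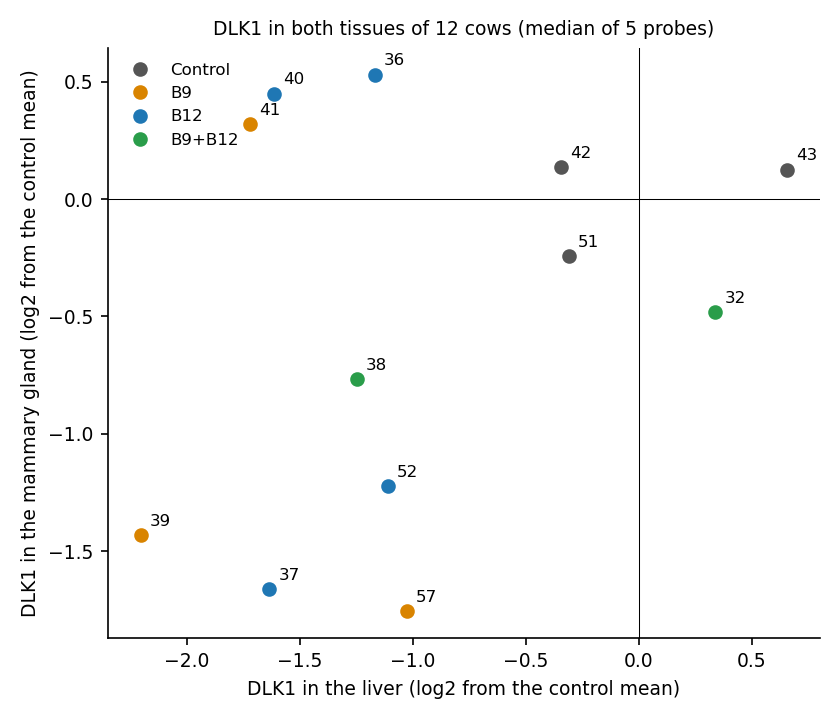
DLK1 in the liver (x axis) against the mammary gland (y axis) of the 12 cows with both tissues, each as the median of 5 probes in log2 units from that tissue's control mean, coloured by treatment. All 7 cows given a single vitamin lie below 0 in the liver, while 3 of them (41, 36 and 40) lie above 0 in the mammary gland.

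Other genes followed DLK1 across arrays with smaller ranges. Over the 12 liver arrays, the closest were C8B, a complement component (r = 0.87), MAOB, a monoamine oxidase (0.85), PLPP3, a lipid phosphate phosphatase (0.85), GNG11, a G protein gamma subunit (0.83), and ZNF784, a zinc finger protein (0.82). C8B differed from control by -0.37 with B9, -0.25 with B12 and 0.02 with both, and PLPP3 by -0.52, -0.31 and -0.07. Over the 13 mammary arrays, the closest were ACBD4 (0.86), STAMBP (0.81), CCDC22 (0.80), WDFY1 (0.79) and IFT70A (0.78). None of these 5 was among the liver's. The 99th percentile of r over all detected probes was 0.64 in liver and 0.60 in mammary tissue, and these r values describe arrays that share treatment and normalization.

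DLK1 lies in an imprinted cluster with MEG3, a maternally expressed noncoding RNA, and with RTL1 and DIO3. In the liver MEG3 had a mean of 7.03 ± 0.23 (SD, n = 3) in controls, 6.13 ± 0.67 (n = 3) with B9, 6.80 ± 0.25 (n = 4) with B12 and 6.65 ± 0.85 (n = 2) with both. The difference with B9 was -0.90, with no overlap between groups. Mammary MEG3 was 7.59 ± 0.31 in controls and 7.02 ± 0.39 with B9, a difference of -0.58 without overlap that limma did not call (adjusted p = 1), and its mean was 7.43 with B12 and 7.50 with both. RTL1 and DIO3 were not well above background on any array.

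IGF2 was bright in every liver. Its 11 probes spanned 0.29 to 1.11 log2 units over the livers, and A_73_P348406 spanned 0.38. For A_73_P348406 the liver values were 18.09, 17.82 and 17.83 in control cows, 17.88, 18.00 and 17.77 with B9, 17.71, 17.81, 17.85 and 17.86 with B12, and 17.92 and 18.03 with both. Each treated group overlapped the control group, while the B12 livers lay below the B9_B12 livers. Over the 11 IGF2 probes the median difference in the liver was -0.01 with B9, -0.09 with B12 and 0.17 with both.

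With both vitamins, 3 IGF2 probes lay above all control livers, namely A_73_104925 (0.29), A_73_P103116 (0.31) and A_73_P104016 (0.24), against 11.8% of all probes. The mammary median over the 11 probes was -0.11 with B9, 0.15 with B12 and 0.00 with both. B9_B12 cow 31, which had no liver array, was the highest mammary array at 9 of the 11 probes. Probe A_73_P102806 departed from the rest in the mammary gland, with r down to -0.44 with other IGF2 probes where the median pair had 0.80. Its values there were 9.53, 9.93 and 10.18 in control cows and 10.66, 9.67 and 8.94 with B9. H19, the maternally expressed noncoding RNA next to IGF2, had 7.31 ± 0.17 in control livers, 7.25 ± 0.48 with B9 and 7.11 ± 0.32 with B12, and 9.51 and 7.88 in the B9_B12 livers, a difference of 1.38.

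IGF2R differed little in either tissue. At A_73_118894 the liver gave 11.95, 12.27 and 12.70 in controls, 12.23, 12.33 and 12.21 with B9, 12.37, 12.42, 12.46 and 12.34 with B12, and 13.01 and 12.42 with both. B9_B12 cow 32 was the only liver above the highest control. On the mammary arrays, A_73_P081841 gave 9.07, 9.07 and 9.04 in controls and 9.14, 9.35, 9.18 and 9.08 with B12, a difference of 0.12. These B12 arrays did not overlap the controls, and the exact permutation p was 0.0571, the smallest of the 33 in that contrast, where 0.0286 is the least possible.

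MEST values were higher in B9 and B9_B12 livers than in control livers at all 5 probes on average, and close to the controls with B12. At A_73_P312451 the control cows had 8.36, 8.42 and 8.41, B9 cows 8.83, 8.59 and 9.32, B12 cows 8.13, 8.55, 8.53 and 8.84, and B9_B12 cows 9.38 and 8.76. All B9 and B9_B12 livers lay above the controls, while B12 cow 36 lay below them. The SD of the controls at this probe was only 0.03. The highest values, 9.32 in B9 cow 57 and 9.38 in B9_B12 cow 32, came from the arrays that correlated least with the other livers. A_73_P102641 gave 6.60, 6.34 and 6.63 in controls, 6.91, 6.93 and 7.47 with B9, 6.01, 6.50, 6.73 and 6.91 with B12, and 6.94 and 7.01 with both.

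With B9 the MEST difference was 0.39 to 0.58 over the 5 probes (median 0.46), and 3 of them lay above all controls, against 4.28% of all probes. With B12 it was 0.02 to 0.20 and none lay above all controls, against 2.45% of all probes. With both vitamins it was 0.05 to 0.67 (median 0.45), and 3 of 5 lay above all controls, against 11.8% of all probes. A_73_P312451 had the smallest p of any member in that contrast, with a difference of 0.67, a 95% interval of 0.11 to 1.24 and a limma p of 0.0237, but its adjusted p was 0.664. The r of MEST with DLK1 was -0.48 to 0.05 in the liver over the 5 probes. On the mammary arrays it was 0.65 at A_73_P312451, 0.42 at A_73_100042 and -0.02 at A_73_P102641. The 99th percentile over all detected probes there was 0.60.

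**Figure D3:**
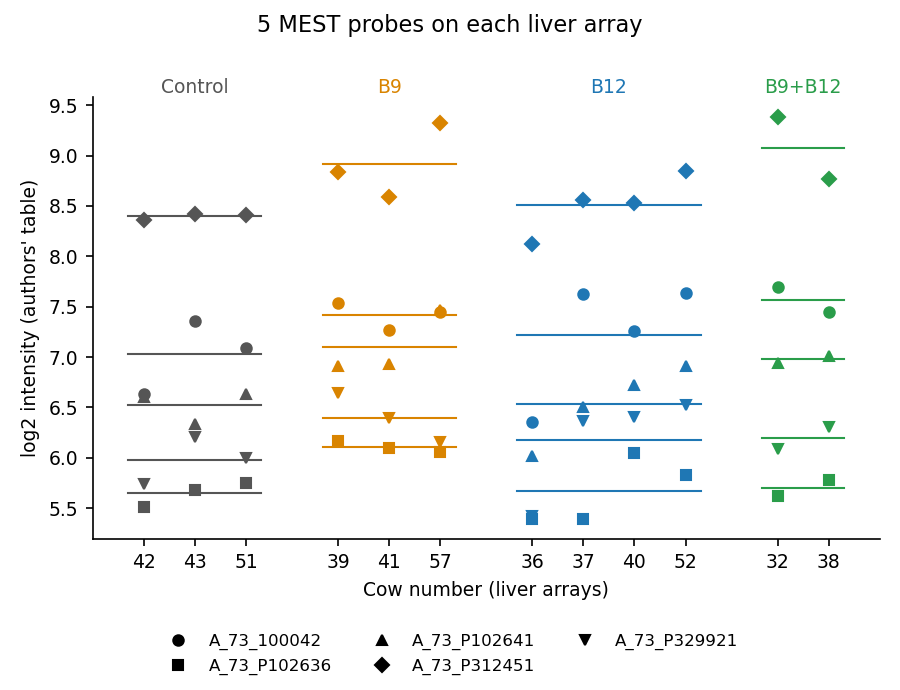
Log2 intensity of the MEST probes on the 12 liver arrays, by cow and treatment, with a symbol for each probe and a line at each group's mean. At A_73_P312451 the controls lie between 8.36 and 8.42, and all B9 and B9_B12 cows lie above them, from 8.59 to 9.38.

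The MEST probes A_73_P102636 and A_73_P329921 were not well above background on any of the 13 mammary arrays. A_73_P312451 was detected on all of them and gave 7.65, 7.58 and 7.74 in controls, 7.76, 7.60 and 6.95 with B9, 7.78, 7.28, 7.85 and 7.37 with B12, and 7.53, 7.56 and 7.81 with both. The groups overlapped at this probe. At A_73_100042 the B9 mammary glands (5.20, 5.06 and 5.06) lay below the controls (5.42, 5.33 and 5.21), a difference of -0.21.

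PLAGL1 overlapped between groups in every contrast. At A_73_116980 the livers had 6.77, 7.05 and 6.31 in controls, 6.59, 6.63 and 5.99 with B9, 6.50, 6.75, 6.60 and 6.68 with B12, and 6.68 and 6.70 with both. The mammary means at this probe were 7.84 ± 0.17 in controls, 7.73 ± 0.25 with B9, 7.87 ± 0.18 with B12 and 7.77 ± 0.10 with both. A_73_P103146 was well above background on 1 liver array and on no mammary array.

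GNAS was bright in both tissues, with liver differences of 0.09 to 0.25 with B9, -0.26 to -0.05 with B12 and -0.19 to 0.01 with both over the 6 probes. At A_73_102858 the control livers had 15.50, 14.98 and 15.34, B9 livers 15.47, 15.53 and 15.25, B12 livers 15.49, 14.83, 15.25 and 15.30, and B9_B12 livers 15.00 and 15.52. The low array of each of 3 groups was the array scanned on the second day, from cows 43, 37 and 32. At all 6 GNAS probes these 3 arrays lay below the other 9 livers, against 1.89% of all probes, and at 3 IGF2 probes they lay above them, against 2.27%. No DLK1 or MEST probe separated the arrays by scan day. B9 had no liver on that slide, and the part of the scan day in the GNAS values was not tested.

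**Figure D4:**
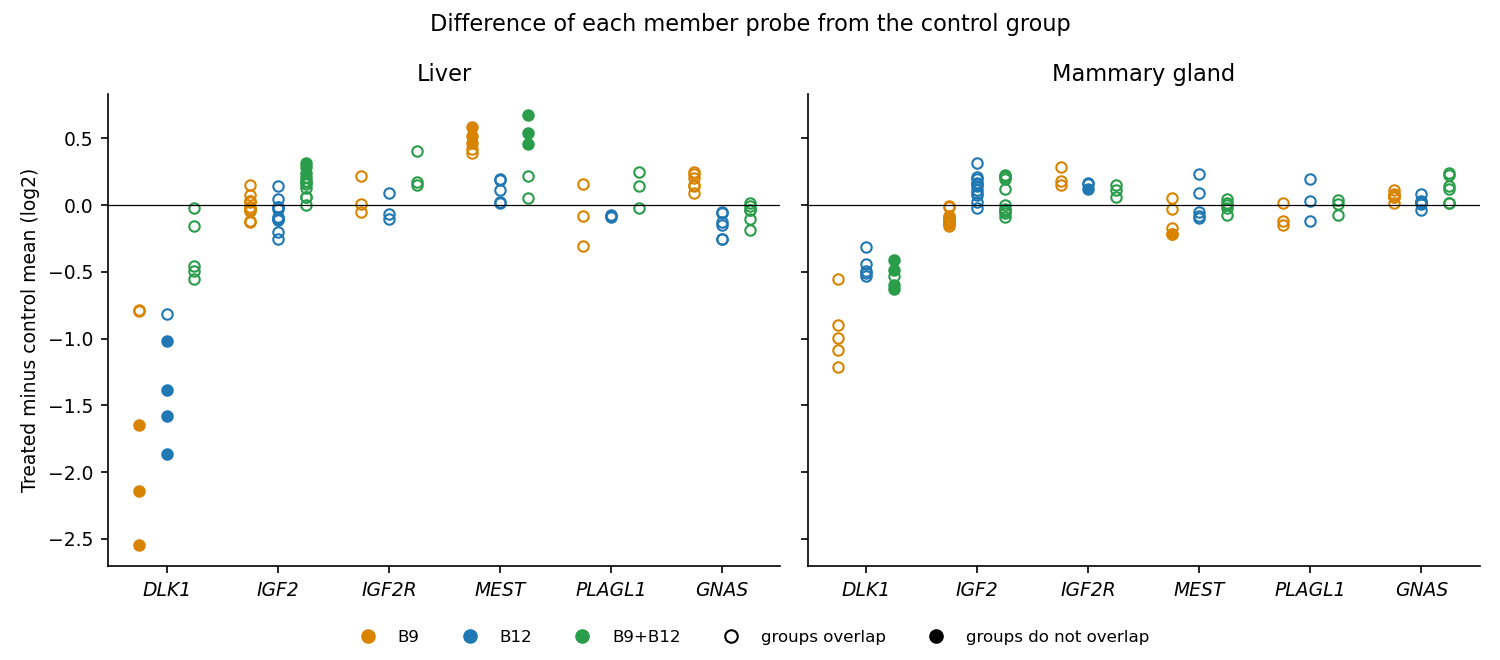
Treated minus control mean in log2 units for each of the 33 probes, grouped by gene, with the treatments in colour and a panel for each tissue. DLK1 extends to -2.54 with B9 in the liver, and probes of the other genes lie between -0.31 and 0.67 in the liver panel and between -0.22 and 0.31 in the mammary panel.

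Over all members, the tested treatment contrasts gave no call at an adjusted p of 0.05 or less and a change of at least 2-fold. With both vitamins in the liver, 0 of 33 probes were called by limma and 0 by Cyber-T, against 0.0597% of all probes by Cyber-T. By limma 1 had an unadjusted p under 0.05, against 5.98% of all probes, and by Cyber-T 0 did, against 6.31%. In the mammary gland, 0 were called by either tool in any contrast, where Cyber-T called 0.0275% of all probes with B9, 0.0275% with B12 and 0.0229% with both. There limma gave no member with an unadjusted p under 0.05, against 2.61% of all probes with B9, 2.25% with B12 and 1.97% with both. Cyber-T gave 5 with B9, against 3.45% of all probes, 0 with B12, against 3.61%, and 5 with both, against 3.47%. The called share of all 43653 probes was 0% by limma in the B9_B12 liver and in all 3 mammary contrasts, 0% in the liver with B9, and 0.00229%, or 1 probe, in the liver with B12.

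Members without overlap are read against all probes in the same way. In the B9_B12 liver 6 of 33 lay above the controls (3 of IGF2 and 3 of MEST), against 11.8% of all probes, and 0 lay below, against 9.96%. Of the mammary contrasts, B9 had 1 member below (MEST), against 3.17%, and 0 above, against 3.82%. With B12 0 lay below, against 1.66%, and 1 above (IGF2R), against 2.2%. The median difference of the 28 probes of the other genes was between -0.07 and 0.15 over the 6 contrasts.

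Liver and mammary gland were compared on scanner intensities normalized together, averaged over the 4 treatments. In this comparison 17 of the 28 probes other than DLK1 were called by limma, against 18.7% of all probes, with 11 higher in the liver (all IGF2), against 8.8%, and 6 higher in the mammary gland (4 of GNAS and 2 of PLAGL1), against 9.89%. In 20 of the 28 the tissues did not overlap, against 27.5% of all probes. With DLK1 included, 19 of 33 passed the same thresholds, but its liver values chose the set, so its probes there are a description with no test.

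IGF2 was higher in the liver by 2.37 to 3.45 log2 units over its 11 probes, or 5.17- to 10.9-fold. At A_73_P348406 the mean was 17.34 ± 0.14 (SD, n = 12) in liver and 14.61 ± 0.25 (n = 13) in mammary tissue, a difference of 2.76 ± 0.08 (SE) with a limma adjusted p of 8.62e-17. The tissues did not overlap at any of the 11 probes.

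For DLK1 the liver side of this comparison holds the B9 and B12 livers on which it was picked, so its tissue values are a description with no test. Averaged over the treatments, the liver minus mammary difference was -1.60 at A_73_P069591 to -0.77 at A_73_110424, and the tissues overlapped at all 5 probes. In control cows alone it was -1.10 to -0.65 (median -0.80), and in B9_B12 cows -0.96 to -0.42 (median -0.47). It was below 0 at all 5 probes in each of the 4 treatments.

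GNAS was higher in the mammary gland at all 6 probes, by -1.50 to -0.94 as liver minus mammary, with limma adjusted p of at most 1.81e-07. PLAGL1 was higher there by -1.77 at A_73_116980 and -1.48 at A_73_P291476. IGF2R reached 2-fold at no probe, with differences of -0.55, -0.35 and 0.00. MEST reached 2-fold at no probe either, with -0.04 to 0.90. At its probes not detected in the mammary gland the liver was at least 1.22-fold (A_73_P102636) and at least 1.36-fold higher (A_73_P329921), where the dim group was set at the lowest signal detected on each array.

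**Figure D5:**
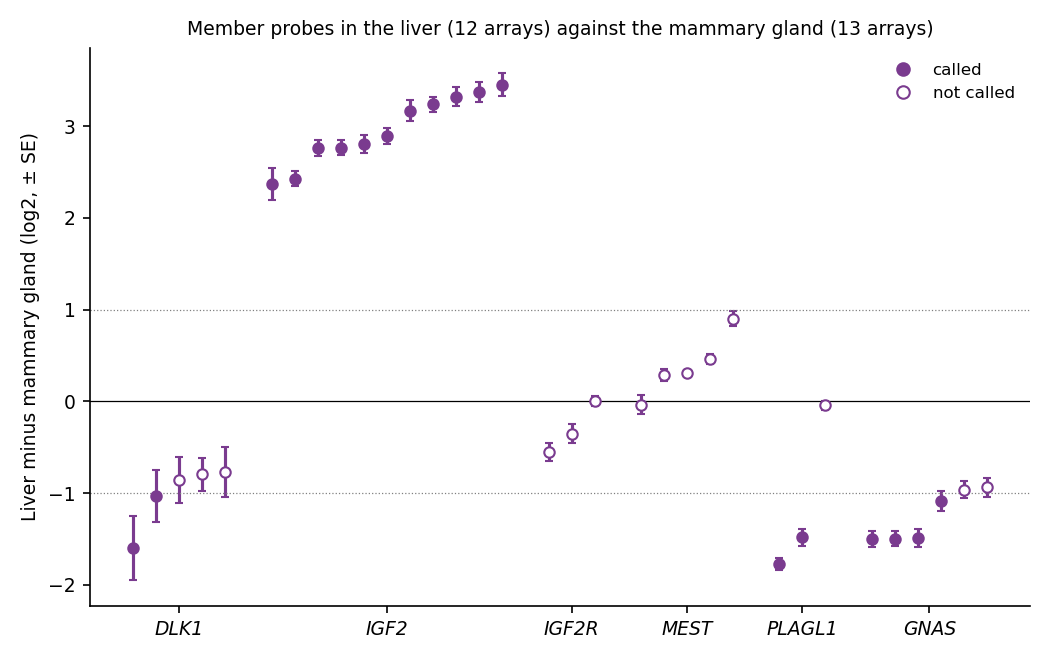
Liver minus mammary gland difference (log2, with SE) for the 33 probes on intensities normalized together over 25 arrays, grouped by gene, with filled points for probes past both thresholds and dotted lines at 2-fold. All 11 IGF2 probes lie between 2.37 and 3.45, and all DLK1 and GNAS probes lie below 0.

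Replacing quantiles with each array's 75th percentile moved the median of all probes to -0.80, and the all-probe calls from 3840 higher and 4317 lower in the liver to 3659 and 15279. Agilent's processed signal gave 6204 and 13433 with a median of -0.48. All IGF2, DLK1 and GNAS probes kept their direction under both, although none of the GNAS probes reached 2-fold under the 75th percentile. The all-probe median was itself negative under both, so the kept sign of DLK1 and GNAS was shared with it. Under the 75th percentile DLK1 A_73_110424 was at -0.30, above that median. The MEST probes A_73_P102636, A_73_P102641 and A_73_P329921 turned to -0.65, -0.40 and -0.43 under the 75th percentile, still above the all-probe median of -0.80. The sign of MEST between tissues therefore depends on the scaling, through a shift that all probes share.

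The B9_B12 response was also compared between tissues, as the liver response minus the mammary response. For DLK1 it was 0.13 to 0.51 (median 0.26) and for MEST it had a median of 0.28. limma called 0% of all probes and 0 of the 33 members, and 0 members had an unadjusted p under 0.05, against 4.25% of all probes. The smallest member p from limma was 0.0703.

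The genes around these members were read from lists of Notch signalling, the IGF axis, other imprinted genes, imprint maintenance and cyclic AMP signalling. Of the 77 genes found, limma called 0 in the B9_B12 liver and 0 in each mammary contrast, and so did Cyber-T. In the B9_B12 liver 13 had an unadjusted p under 0.05, against 798 of all 11068 genes. On the mammary arrays 4, 3 and 3 did with B9, B12 and both, against 286, 275 and 216 of all genes.

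In the B9_B12 liver, 8 of 14 Notch genes lay above all control livers, as did 14.8% of all genes, and the array of cow 32 is 1 of the 2 behind these values. The median Notch difference was 0.44, against 0.06 over all genes. DLL4, a Notch ligand, differed by 1.16 and HES1, a Notch target, by 1.13, each with a limma adjusted p of 0.664. Of the 14 IGF axis genes 5 lay above the controls, with IGFBP5 at 0.97 and IGFBP6 at 0.79, both binding proteins of the growth factor. Of 25 other imprinted genes 6 lay above and 2 below, led by NNAT, a small membrane proteolipid, at 1.74 and H19. NNAT was 0.64 above the control mean in one of the B9_B12 cows and 2.85 above it in the other. Of 17 cyclic AMP genes 2 lay above and 4 below, as did 9.54% of all genes, with the inhibitory G protein subunits GNAI1 at -0.98 and GNAI3 at -0.84. GNAI3 stood at 9.97 and 11.33 in the B9_B12 cows, which is -1.52 and -0.16 from the control mean.

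Markers of other cells stood apart in the same B9_B12 livers. The summed intensity of 11 stellate cell and fibroblast markers was 39080 to 43770, against 27870 to 36810 in control livers, and that of 7 lymphocyte and plasma cell markers was 3813 to 5115, against 1729 to 3673, both without overlap. The sums of mammary epithelium markers (69910 to 83340 against 91750 to 96150) and mesothelial markers (282.7 to 301.8 against 306.1 to 385.0) were lower without overlap. Gene by gene, however, 7 of the 10 mammary epithelium markers lay above all control livers and 1 below. Their median difference was 0.73, opposite in sign to the change of the sum. None of the 3 mesothelial markers was separate from the controls. The part of these cells in the list values was not tested.

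With B9 alone in the liver, 3 of the 25 other imprinted genes lay below the controls and 1 above, against 3.76% and 4.01% of all genes. NNAT stood at 9.82 ± 1.00 against 8.0 ± 0.49 in controls, a difference of 1.82. Of 14 Notch genes 1 lay below and 1 above, namely RBPJ, the DNA-binding partner of Notch, at -0.53 and DLK2, the paralog of DLK1, at 0.38. With B12 alone 2 of the 77 list genes lay below the controls and 2 above, against 1.99% and 3.04% of all genes, and IGFBP3, the main carrier of the IGFs in blood, differed by 0.38 and CD81, a tetraspanin, by 0.24. The lower genes were ADCY4, an adenylyl cyclase, at -0.36 and PRKAR2B, a regulatory subunit of protein kinase A, at -0.20.

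Of the 77 list genes in the mammary gland, 4 lay below the controls and 2 above with B9, against 3.14% and 2.86% of all genes. With B12 1 lay below and 1 above, against 1.4% and 2.15%, and with both vitamins 1 below and 5 above, against 3.73% and 2.41%. IGFBP5 lay above with B9 (0.40) and with both vitamins (0.67), and LFNG, a modifier of Notch receptors, with both (0.62). TFPI2, a protease inhibitor, lay above with B12 (0.36) and with both (0.34). SOCS2, an inhibitor of cytokine signalling, lay below with B9 (-0.36), and so did MFNG, a modifier of Notch receptors (-0.28). GNAI3 lay below with B12 (-0.11). Of the genes in these counts, PHLDA2 with B9 was well above background on 3 of 13 mammary arrays, and DPPA3 with B9 and HEY2 with both vitamins on 0, so no values are given for them. The limma adjusted p was at least 0.9999 for each. The mammary contrasts share their control arrays.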

How the data were processed

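Liver and mammary biopsies of 13 cows were hybridised, 1 cow per Cy3 array, and scanned with Agilent Feature Extraction (version 9.1 in the submitters' processing notes, 10.7.3.1 per the file headers). The deposited table holds log2 values that the authors background-corrected and quantile-normalized within each tissue. Recomputing them from the scanner median intensity deposited for each spot, by normexp with an offset of 16 and quantiles, gave median absolute differences of 0.00186 (liver) and 0.000959 (mammary), with largest differences of 2.22 and 1.78. Spots were joined by feature number, outlier spots were left out, spots of 1 probe were averaged, and a RefSeq table paired 53.9% of probe features with a symbol. No spot of a member was an outlier or saturated. The number of arrays limits the precision.

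Treatments were compared within each tissue by limma (version 3.58.1, R 4.3.3) over all probes, with Benjamini-Hochberg adjustment, called at an adjusted p of 0.05 and 2-fold. Tissues were compared on log2 median intensity (normexp, offset 50, quantiles over 25 arrays). Within a tissue, each array is a separate cow. Fits were tested on simulated data. The same cow number marks the same animal in both tissues, so numbers pair them, and the deviations of a cow's arrays from their group means correlated by -0.27 to 0.27 over 12 cows, above 0.1 in 4.

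The members and lists were chosen with earlier results of these data known. All members are given in both tissues. Genes most like DLK1 are the 5 of highest Pearson's r with the mean of its centred probes, among probes well above background on at least 6 arrays, and each list names up to the 2 genes of largest difference among those without overlap. Gene lists use the probe of highest mean. Alternatives were other values, scalings, filters, blocks, Cyber-T (the methods' test, window 101, confidence 10) and leaving out arrays.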

Additional observations from a re-analysis of the deposited data

Results flagged for a closer look

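Of 66 groups of 4 arrays, 6 held an array far from the other 3, where chance gives about 1 in 20 for independent groups. These groups are the 33 probes on the same 8 arrays and are not independent. In the liver with B12, cow 36 was low at IGF2 A_73_P103116 (16.49, others 16.73 to 16.76), at IGF2 A_73_P104016 (15.61, others 16.04 to 16.12) and at MEST A_73_P329921 (5.43, others 6.36 to 6.52). Cow 36 was also the lowest of all 12 livers at 8 of the 11 IGF2 probes. In the same group, cow 40 was high at IGF2R A_73_P081841 (10.34, others 9.97 to 9.99) and cow 37, on the slide scanned on the second day, was low at GNAS A_73_P513388 (10.46, others 11.08 to 11.17). In the mammary gland with B12, cow 37 was low at MEST A_73_100042 (4.94, others 5.35 to 5.40).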

How the results depend on the processing

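The median DLK1 difference in the liver with B9 or B12 alone stayed negative under every alternative run. With B9 its median of -1.65 became -0.459 with slide as a fixed block, where cow 57 was the only B9 liver on a slide with a control, and it was -1.962 to -1.322 with each array left out in turn. With B12 the median of -1.38 was -1.556 to -1.055 with each array left out. Without the slide scanned on the second day, an alternative added after the data were seen, the medians were -1.322 and -0.970. In the B9_B12 liver DLK1 lay between -0.383 without cow 32 and 0.338 without cow 38 at A_73_110424, and in the same way between -1.423 and 0.314 at A_73_P069591, -1.25 and 0.333 at A_73_P102621, -0.688 and 0.381 at A_73_P360536, and -1.477 and 0.493 at A_73_P399776. A_73_110424 also reversed to 0.178 with the 75th percentile, 0.186 with processed signals and 0.158 without control cow 43, where A_73_P360536 gave 0.044. In the mammary gland with B12, A_73_P069591 ran from -0.922 without cow 36 to 0.009 without cow 37. The causes were not tested.

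No member was called in any tested treatment contrast, or in the B9_B12 response of the liver minus that of the mammary gland, under any alternative, leaving out each array in turn included (0 to 0). Between tissues 19 probes passed the thresholds, and the 2 of DLK1 among them are a description with no test. The count, DLK1 included, was 18 to 20 with each array left out and 17 with the 75th percentile. It was 23 with processed signals, 21 without background correction and 16 with slide as a fixed block. In the paired fit, which took cow as a random block, 19 passed the thresholds and none changed, at a correlation within cows of -0.022. MEST A_73_P312451 ran from -0.102 without liver B9_B12 cow 32 to 0.003 without mammary B9 cow 39 and 0.03 without liver cow 38, and GNAS A_73_102858 was -0.953 with the 75th percentile.

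Counts over all probes varied more. Cyber-T called 5, 48 and 26 probes in the liver with B9, B12 and both, and 12, 12 and 10 in the mammary gland, where limma called 0 but for 1 in the B12 liver. limma called 5 in the B12 liver in a fit of those 2 groups alone, and 0 with processed signals or slide as a fixed block. In the B9_B12 liver the count changed without cow 38, without cow 32 and without the slide of the second day. Each of these fits left 1 B9_B12 liver array, with the spread taken from other groups, so the counts are not given. The same holds for the liver response to B9_B12 minus the mammary response without these liver arrays. Between tissues 18938 were called with the 75th percentile and 19637 with processed signals, against 8157. Under the 75th percentile the median difference of all probes was 0.11, -0.08 and 0.27 in the liver with B9, B12 and both, and -0.21, -0.12 and -0.15 in the mammary gland. Groups of 2 to 4 arrays limit what could be detected, and a weak signal may do so too. The median signal over background was 3.87-fold in the mammary gland, and the weakest array was that of liver B9_B12 cow 32, at 2.30-fold. The part of the signal was not tested.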
